A study of Mus musculus with 8 samples.

Results

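Vitamin A reaches the gut as carotenoids and retinyl esters, and enterocytes take up retinol, bind it and esterify it for export in chylomicrons. A smaller flow is oxidised, first reversibly to retinaldehyde and then irreversibly to retinoic acid, the ligand of nuclear receptors that regulate epithelial and mucosal immune genes. Retinaldehyde reductases drive the first oxidation backwards, so the balance of these enzymes helps to set how much retinoic acid can form. The genes described here are 10 rows of the 41128 gene rows in the deposited table, chosen by symbol for these steps. They are Rbp2 and Lrat (retinol binding and esterification), Retsat (saturation of retinol), Adh1, Rdh7, Rdh10 and Dhrs9 (oxidation of retinol), Dhrs3 (reduction of retinaldehyde), Aldh1a1 (oxidation of retinaldehyde) and Isx (an intestinal transcription factor).

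RNA was measured in whole-tissue sections of distal ileum, taken less than 6 cm from the ileocecal valve, from 8 FVB mice with 1 library per animal. The mice formed 4 couples of littermates of the same labelled sex, each a Cftr -/- animal (KO, carrying the Cftrtm1Cam null allele) and a Cftr N/N wild-type animal (WT). Cftr encodes the chloride and bicarbonate channel that is lost in cystic fibrosis. In 1 couple, labelled female, a KO and a WT mouse had received 0.3 g/L ciprofloxacin and 0.5 g/L metronidazole in the drinking water. The other 3 couples, of which couples 1 and 3 were female and couple 2 male, gave 3 KO and 3 WT mice without antibiotics. All animals had eaten a diet low in fibre and had received an osmotic laxative, which had been withdrawn more than 4 days earlier. The sources used here state neither the age of the mice nor how long antibiotics were given.

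The values fell with gene length and were taken as RPKM, which scales reads by library size and gene length. Comparisons of levels between genes rest on that assumption. The unit of the values is not named and read depth is unknown, so no counting error could be set on a value. Cftr, the check of the genotype labels, had 4.94 in the KO mouse with antibiotics and 13.8 in its WT littermate. Without antibiotics it had 2.65 to 3.74 in KO and 9.94 to 12.4 in WT mice. Of the absorptive enterocyte markers, 12 of 12 were measured, and mesothelial markers summed to at most 2.83 in any library. The sources used here do not give the normalization, but the values shared between libraries point to 3 sets (couples 1 and 2, couple 3, the antibiotic couple). Couple 3 listed the fewest genes above 0, 11912 and 11931. A listed 0 was therefore not read as absence. The WT antibiotic library had faulty values in 423 genes, none of them among the 10 retinoid genes.

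The 5 promoters printed here belong to the 3 genes that were lower in untreated KO ileum in every fit with a filter on low values and all libraries (Retsat, Adh1, Rdh7) and the pair that was higher when littermates were paired (Dhrs9, Rbp2). They run from 250 bases before to 50 bases after the RefSeq start site (GRCm38.p6) and are written 5' to 3' on the gene's strand. The Retsat window is chr6:72598352-72598651 on the plus strand and the Adh1 window chr3:138277335-138277634 on the plus strand. The Rdh7 window is chr10:127888684-127888983 on the minus strand. The Dhrs9 window is chr2:69380212-69380511 and the Rbp2 window chr9:98490287-98490586, both on the plus strand. Capitals mark matches, on either strand, to the motifs searched.
Retsat promoter: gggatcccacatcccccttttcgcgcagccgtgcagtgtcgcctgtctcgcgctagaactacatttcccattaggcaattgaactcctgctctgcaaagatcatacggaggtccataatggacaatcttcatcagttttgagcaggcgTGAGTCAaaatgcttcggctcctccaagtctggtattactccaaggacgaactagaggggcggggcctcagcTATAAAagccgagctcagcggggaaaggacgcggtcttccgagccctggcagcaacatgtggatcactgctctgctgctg
Adh1 promoter: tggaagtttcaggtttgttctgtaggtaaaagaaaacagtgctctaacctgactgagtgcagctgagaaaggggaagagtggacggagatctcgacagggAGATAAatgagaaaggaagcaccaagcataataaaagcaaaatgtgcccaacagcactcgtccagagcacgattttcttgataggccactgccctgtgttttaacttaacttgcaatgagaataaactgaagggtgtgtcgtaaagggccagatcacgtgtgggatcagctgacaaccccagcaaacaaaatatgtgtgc
Rdh7 promoter: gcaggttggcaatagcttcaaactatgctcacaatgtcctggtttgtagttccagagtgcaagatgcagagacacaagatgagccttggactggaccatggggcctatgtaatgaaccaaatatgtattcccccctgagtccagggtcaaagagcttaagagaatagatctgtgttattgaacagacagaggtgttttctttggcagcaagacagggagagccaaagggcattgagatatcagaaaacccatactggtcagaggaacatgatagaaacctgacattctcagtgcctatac
Dhrs9 promoter: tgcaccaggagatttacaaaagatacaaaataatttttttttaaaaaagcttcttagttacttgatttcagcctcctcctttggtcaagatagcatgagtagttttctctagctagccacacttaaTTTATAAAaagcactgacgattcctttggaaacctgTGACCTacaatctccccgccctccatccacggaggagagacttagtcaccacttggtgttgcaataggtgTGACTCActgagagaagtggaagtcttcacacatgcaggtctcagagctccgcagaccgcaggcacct
Rbp2 promoter: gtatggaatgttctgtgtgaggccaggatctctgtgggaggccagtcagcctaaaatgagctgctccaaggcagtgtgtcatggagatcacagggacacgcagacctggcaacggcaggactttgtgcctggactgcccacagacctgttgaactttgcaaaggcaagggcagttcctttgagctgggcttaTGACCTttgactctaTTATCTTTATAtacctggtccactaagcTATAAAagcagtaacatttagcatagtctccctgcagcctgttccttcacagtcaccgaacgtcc

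Each motif was searched on both strands. The Retsat window held a TATA box (TATAAA) starting 30 bases before the start site and an AP-1 element (TGANTCA) starting 102 bases before it. The Adh1 window held a GATA element (AGATAA), and the Rdh7 window held no match. The Rbp2 window held a match to the nuclear receptor half-site AGGTCA and also one to the GATA element, whose last base pair is also the first of a reverse-strand TATA match. A second TATA match in the Rbp2 window began 15 bases before the start. The Dhrs9 window held a half-site, an AP-1 element and TATA matches on both strands that share 4 bases. Of 32851 promoters of the same length, 16.3% held the half-site, 13.6% the TATA box, 11.2% the GATA element and 7.81% the AP-1 element. Of the 9 retinoid genes with a promoter in the table, 2, 3, 3 and 2 held them in that order. None of the 9 windows held TTTATG (a CDX element, 11.9% of all promoters), CAAAGTCCA (HNF4A, 0.475%), the palindromic HNF1 element (0.00913%) or a direct repeat of the half-site with 1 base (0.0396%) or 5 bases (0.00913%) between its copies. A match is a description of letters and does not show binding.

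The first comparison asks which retinoid genes differ with the loss of Cftr in mice without antibiotics. Retsat, Adh1 and Rdh7 fell in untreated KO ileum, with KO means at 0.159, 0.276 and 0.199 times the WT means. Aldh1a1, Dhrs3 and Isx were also lower in every KO library than in any WT library, and Dhrs9 was higher in every KO library, but these passed the test only when littermates were paired. Rbp2 was higher in the KO mouse of each couple, while Rdh10 showed no difference that passed either test. Of the 9 genes tested, 3 were lower and 0 higher at an adjusted p under 0.05 (limma, Benjamini-Hochberg over 11717 genes), where 1.01% of all genes tested were lower and 1.15% higher (2.16% either way). With the littermate couple as a block, 6 were lower and 2 higher, against 9.91% and 8.40% of all genes (18.3% either way). KO and WT values did not overlap for 6 genes with KO lower and 1 with KO higher, against 12.1% and 10.4% of all genes. In sections of whole tissue, fewer cells of a type and less RNA per cell cannot be told apart.

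**Figure D1:**
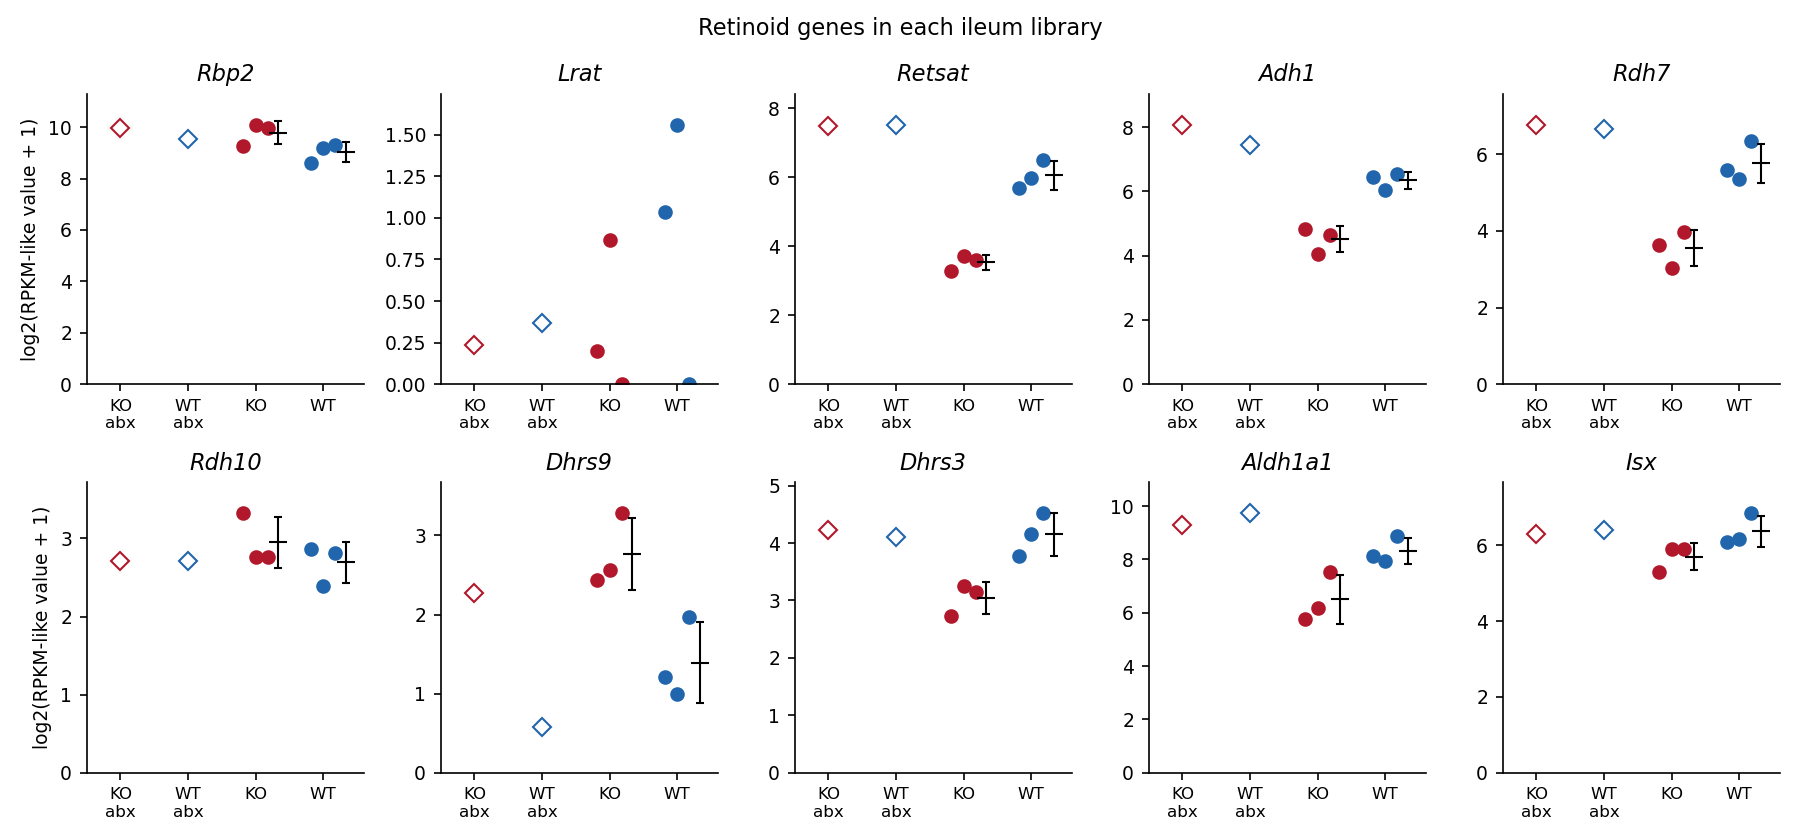
Level of each of the 10 retinoid genes in each library, as log2 of the RPKM-like value plus 1, with a separate vertical axis per gene. Open diamonds are the antibiotic couple (abx), filled circles the untreated KO (red) and WT (blue) mice, and bars the mean ± SD of 3 mice, not drawn for Lrat, which is listed at 0 in couple 3; the KO circles of Retsat, 8.72 to 12.1 before the log, lie below all WT circles, while the antibiotic diamonds lie together.

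Retinol that enters the enterocyte is bound by Rbp2, the cellular retinol-binding protein of the small intestine (chromosome 9, 98486115 to 98509781, GRCm38). Rbp2 had 611, 1093 and 1012 in untreated KO mice of couples 1, 2 and 3, against 388, 581 and 636 in their WT littermates. KO was higher in 3 of 3 couples, although the KO mouse of couple 1 lay below the WT mouse of couple 3. The mean was 905.5 ± 258 in KO and 535 ± 130 in WT mice (SD, n = 3 each), a log2 change of 0.74 with a 95% interval of -0.06 to 1.55. The adjusted p was 0.349 without the block and 0.0212 with it (limma). Leaving out any 1 couple from the blocked fit gave adjusted p-values of 0.0611 to 0.0717.

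Lrat, which esterifies retinol with a fatty acid from lecithin, lies on chromosome 3 (82892579 to 82903973). It had 0.146 and 0.823 in the untreated KO mice of couples 1 and 2, against 1.05 and 1.95 in their WT littermates, and was listed at 0 in both mice of couple 3. It was thus lower in KO in both couples that gave a value, at levels near the bottom of the scale. Lrat did not reach a value of 1 in 3 libraries and was not tested.

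Retsat (chromosome 6, 72598475 to 72608425) saturates a double bond of retinol to give dihydroretinol. It had 8.72, 12.1 and 11.2 in untreated KO mice, against 50.1, 62.2 and 89.3 in their WT littermates. Every KO value lay below every WT value, with a WT littermate 5.75, 5.15 and 7.98 times the KO mouse in couples 1, 2 and 3. The mean was 10.7 ± 1.74 in KO and 67.2 ± 20.1 in WT mice (SD, n = 3 each). The log2 change was -2.52 ± 0.24 (SE), with an adjusted p of 0.00478 (limma). Retsat was called when any 1 library was left out.

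Adh1, a cytosolic alcohol dehydrogenase that oxidises retinol among other alcohols, lies on chromosome 3 (138260991 to 138290698). It had 27.5, 15.7 and 24.2 in untreated KO mice, against 85.7, 65.3 and 93.0 in their WT littermates, again without overlap. The log2 change was -1.83 ± 0.25 (SE), with an adjusted p of 0.0167 (limma). The call was lost without the WT mouse of couple 1 (adjusted p = 0.0550, limma) or of couple 3 (0.0735).

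Rdh7, a microsomal retinol dehydrogenase of the short-chain dehydrogenase family, lies on chromosome 10 (127884028 to 127888817). It had 11.5, 7.23 and 14.6 in untreated KO mice, against 47.6, 40.1 and 79.6 in their WT littermates, and the groups did not overlap. The log2 change was -2.22 ± 0.32 (SE), with an adjusted p of 0.0185 (limma). Leaving out KO 1, KO 2, WT 1 or WT 3 moved the adjusted p of limma to 0.0660, 0.0526, 0.0516 and 0.0550. Of the 50-base windows of Rdh7 transcripts, 12.9% also occurred in another gene, mostly the pseudogene Rdh18-ps, which was listed at no more than 0.0651 in any library. Without any filter on low values, the adjusted p of Retsat, Adh1 and Rdh7 was 0.0751, 0.142 and 0.162 (limma, 23285 genes), so all 3 unblocked calls rest on that filter. A blocked fit without the filter was not run.

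Rdh10 and Dhrs9 did not share this direction. Rdh10, the retinol dehydrogenase that embryos need to make retinoic acid (chromosome 1, 16105774 to 16133734), had 9.01, 5.77 and 5.78 in untreated KO mice, against 6.31, 4.26 and 6.05 in WT littermates. The groups overlapped, and the log2 change was 0.25 with a 95% interval of -0.25 to 0.76 (adjusted p = 0.633, limma). Dhrs9, a short-chain dehydrogenase that oxidises retinol and 3-alpha-hydroxysteroids, lies on chromosome 2 (69380445 to 69404533). It had 4.41, 4.92 and 8.72 in untreated KO mice, against 1.31, 0.991 and 2.91 in WT littermates. Every KO value exceeded every WT value, and the log2 change was 1.37 ± 0.32 (SE). The adjusted p was 0.0856 without the block and 0.00835 with it (limma), and with the block it stayed under 0.05 without any 1 couple.

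The proportions of these genes' RNA values also differed between genotypes. Rdh7 had 2.61, 1.47 and 1.67 times the level of Dhrs9 in untreated KO mice, against 36.2, 40.5 and 27.4 times in WT littermates. Adh1 had 6.23, 3.20 and 2.77 times the level of Dhrs9 in KO, against 65.2, 65.9 and 32.0 times in WT. Neither ratio overlapped between the genotypes. These ratios combine the differences already given and were not tested. Those in WT mice rest on low Dhrs9 values of 1.31, 0.991 and 2.91.

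Dhrs3 reduces retinaldehyde back to retinol and is known in other tissues to be induced by retinoic acid (chromosome 4, 144892827 to 144928209). It had 5.65, 8.55 and 7.84 in untreated KO mice, against 12.7, 16.9 and 22.0 in WT littermates, without overlap. The log2 change was -1.11 ± 0.23 (SE), and limma's adjusted p was 0.0657 unblocked and 0.0136 blocked. The blocked call held without any 1 couple, with a highest adjusted p of 0.0491.

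Aldh1a1, a cytosolic dehydrogenase that turns retinaldehyde into retinoic acid, lies on chromosome 19 (20492715 to 20643465). It had 54.0, 71.1 and 186 in untreated KO mice, against 282, 244 and 465 in WT littermates. The KO mouse of couple 3 stood well above the other KO mice, but below every WT mouse. The log2 change was -1.82 ± 0.48 (SE), and limma's adjusted p was 0.114 unblocked and 0.0162 blocked. Without the KO mouse of couple 3 the unblocked adjusted p was 0.0413, and without couple 2 the blocked one was 0.0543 (limma). Aldh1a1 shared 3.06% of its 50-base windows with Aldh1a7, its close paralogue.

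Isx, a homeobox factor of the intestine that represses the carotenoid cleavage gene Bco1 and the receptor gene Scarb1 and is itself induced by retinoic acid, lies on chromosome 8 (74873173 to 74893506). It had 38.2, 59.1 and 58.9 in untreated KO mice, against 67.2, 70.9 and 114 in WT littermates. The groups did not overlap, but KO 2 and KO 3 lay close to the lower WT mice. The log2 change was -0.67 ± 0.28 (SE), and limma's adjusted p was 0.300 unblocked and 0.0476 blocked. The blocked call was lost without couple 1 (0.132, limma) or couple 3 (0.141). Scarb1 had 1.70, 1.26 and 1.02 in untreated KO mice, against 1.45, 1.82 and 1.40 in WT littermates, and did not pass the test (adjusted p = 0.755, limma). Bco1, in the table under its older symbol Bcmo1, had 0.747, 1.49 and 0 in KO, against 0.710, 0.876 and 0 in WT, and was too low to test.

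In WT mice without antibiotics the genes stood in a stable order. Rbp2 was first and Aldh1a1 second in 3 of 3 WT libraries, although the ranges over mice overlapped. Isx, Adh1, Retsat and Rdh7 followed with overlapping ranges between 40.1 and 114. Dhrs3 came next, then Rdh10, and neither overlapped its neighbours, while Dhrs9 and Lrat overlapped at the bottom. In untreated KO mice Rbp2, Aldh1a1, Isx and Adh1 held places 1 to 4 in every library, and Rdh7, Retsat, Dhrs3, Rdh10 and Dhrs9 lay below them. Of these 5, neighbours in the order of their means overlapped, apart from Retsat, which lay just above Dhrs3. Aldh1a1 had 0.0884, 0.0651 and 0.184 times the level of Rbp2 in untreated KO mice, against 0.726, 0.420 and 0.730 times in WT littermates.

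**Figure D2:**
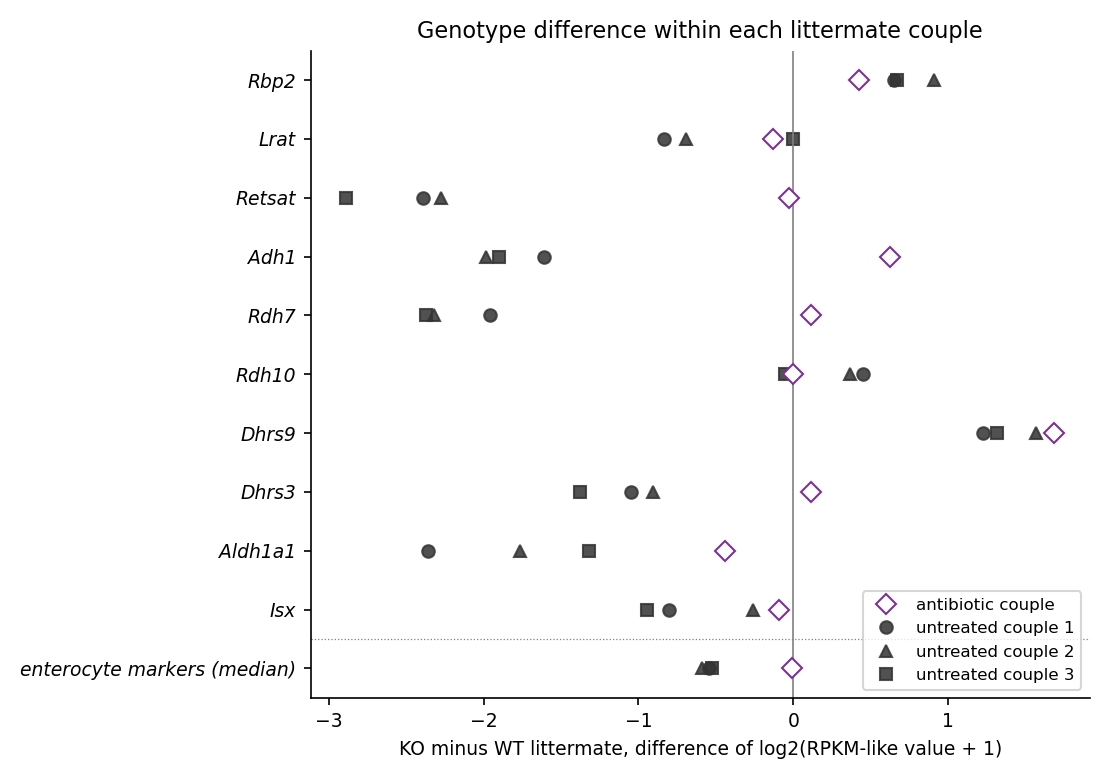
Genotype difference of the 10 retinoid genes within each of the 4 littermate couples, as KO minus WT of log2(RPKM-like value + 1), with the median of 12 absorptive enterocyte markers in the bottom row. Filled symbols are the untreated couples and open diamonds the antibiotic couple; Retsat lies at -2.89 to -2.27 in untreated couples and at -0.03 with antibiotics, while Dhrs9 lies between 1.23 and 1.69 in all couples.

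The second comparison asks how the genotypes differ under antibiotics, with 1 KO and 1 WT mouse and so no replicate check. The low levels of Retsat, Adh1 and Rdh7 in KO ileum were not seen in this couple. Retsat had 178.9 in KO and 182.5 in WT, Rdh7 108 in KO and 100.1 in WT, and Adh1 269 in KO and 174 in WT. Dhrs3 had 17.7 in KO and 16.2 in WT, Isx 78.1 in KO and 83.3 in WT, and Rdh10 5.55 in both mice. These differences lay between -0.09 and 0.11 on the log2 scale except for Adh1, at 0.63 higher in KO, in a couple where 86.7% of all genes lay within 0.5 of each other. Aldh1a1 had 627 in KO and 852 in WT, a difference of -0.44, against -2.36, -1.77 and -1.32 in untreated couples 1, 2 and 3.

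Dhrs9 and Rbp2 kept their direction under antibiotics. Dhrs9 had 3.82 in the KO mouse and 0.498 in its WT littermate, a difference of 1.69, against 1.23, 1.57 and 1.32 in the untreated couples. It was the one gene of the 10 at least 2-fold apart in the antibiotic couple, where 3.26% of all genes were at least 2-fold higher in KO and 0.952% at least 2-fold lower. The WT value of Dhrs9 lay below 1, near the bottom of the scale, so its difference in this couple rests on a low level. Rbp2 had 997 in KO and 743 in WT, a difference of 0.42. Lrat had 0.180 in KO and 0.290 in WT, near the bottom of the scale.

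Whether the genotype difference changed with antibiotics was tested as an interaction over all 8 libraries with the couple as a block, without the 423 genes with faulty values. The KO minus WT difference was 2.49 (SE 0.28) higher on the log2 scale with antibiotics than without for Retsat, 2.46 (SE 0.20) for Adh1 and 2.33 (SE 0.22) for Rdh7. None of the 3 passed, with adjusted p-values of 0.0952, 0.0862 and 0.0862 (limma). None of the 11520 genes in this fit passed, although 1850 had an unadjusted p under 0.05 (483 in limma without the block, where 0 passed too). With all genes kept in the fit, the adjusted p was 0.0293 for Retsat, 0.0136 for Adh1 and 0.0188 for Rdh7 (limma), beside 2.15% of 11911 genes called, among them genes with the faulty values. Dhrs3 (1.22), Aldh1a1 (1.37) and Isx (0.58) also had positive interactions, with adjusted p-values of 0.156, 0.254 and 0.411 (limma). Dhrs9 had 0.32 with a 95% interval of -0.24 to 0.87, Rbp2 -0.32 with -0.88 to 0.23 and Rdh10 -0.25 with -0.91 to 0.40. The spread in this test comes from the untreated couples alone, and antibiotics coincide with 1 couple, so the treatment and the litter cannot be told apart.

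The third comparison sets levels with antibiotics beside those without, in each genotype. The KO mouse with antibiotics had 16.8 times the mean Retsat of untreated KO mice, 12.0 times the Adh1, 9.75 times the Rdh7 and 6.05 times the Aldh1a1. The WT mouse with antibiotics had 2.72, 2.14, 1.79 and 2.58 times the untreated WT mean of the same genes. Retsat, Adh1, Rdh7 and Aldh1a1 in the KO mouse with antibiotics also exceeded every untreated WT mouse. Dhrs3 and Isx in that mouse were 2.40 and 1.50 times the untreated KO mean and lay within the range of untreated WT mice. Rdh10 in that mouse lay just below the untreated KO mice, and Rbp2 lay within their range.

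Dhrs9 was the one gene below the untreated range in both genotypes, at 0.636 times the mean in KO and 0.286 times in WT. Of the 10 genes, 6 lay above every untreated KO mouse and 2 below in the KO mouse with antibiotics, against 19.3% and 41.2% of all genes. In the WT mouse with antibiotics 5 lay above every untreated WT mouse and 1 below, against 9.83% and 40.2% of all genes. Aldh1a1 exceeded Rbp2 in the WT mouse with antibiotics, at 1.15 times its level, and in no other library, with 0.629 times in the KO littermate. Rdh7 had 28.3 times the level of Dhrs9 in the KO mouse with antibiotics and 201 times in its WT littermate. The ratio in the WT mouse rests on a Dhrs9 value of 0.498, near the bottom of the scale. The values point to separate normalization of mice with and without antibiotics, which also differ in litter, so no test was made.

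Markers of the absorptive enterocyte, the main nutrient-absorbing cell of the epithelium, mostly moved in the same direction. Their median difference within a couple was -0.55, -0.59 and -0.52 on the log2 scale in untreated couples 1, 2 and 3, and -0.01 in the antibiotic couple. Of the 12 markers, 8 were lower in KO in 3 of 3 untreated couples, a share not counted over all genes. Slc5a1, Anpep, Krt20 and Cdh17 were not, with differences of -0.25, 0.07 and 0.05 for Slc5a1 and 0.46, -0.07 and 0 for Krt20. Of the 12, 0 were called lower without the block and 6 with it, against 1.01% and 9.91% of all genes. The summed level of the 12 markers, mostly Fabp2, Apoa1 and Apoa4, was 31260 in the KO and 27000 in the WT mouse with antibiotics. Without antibiotics it was 10100 to 17520 in KO against 18220 to 25590 in WT mice. Single markers lay on both sides of 0 in the antibiotic couple, from -0.90 for Sis to 1.30 for Apoa4. Apoa4 had 6822 in the KO and 2774 in the WT mouse there, so neither the sum nor the median describes every marker. None of the 12 markers fell as far as Retsat or Rdh7 in any untreated couple. Outside these 12, among the regional markers given below, Lct fell further than both in each untreated couple. Cubn, a distal marker, fell further than Rdh7 in each, with differences of -3.34, -4.465 and -2.68. No other regional marker fell further than Rdh7 in all of them. For Adh1, 1, 0 and 1 of the 12 fell further in couples 1, 2 and 3, and for Aldh1a1 0, 0 and 1. Dhrs3 lay 0.50, 0.32 and 0.85 below the markers' median, while Isx lay 0.25 below, 0.33 above and 0.42 below it. The part of the enterocyte markers in these results was not tested.

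Retsat and Adh1 are also abundant in fat, and mesenteric fat can cling to ileum. The median difference of 8 fat markers was -0.50, -1.66 and 0.71 in untreated couples 1, 2 and 3 and -0.97 in the antibiotic couple, and of these 8 Lep alone was listed at 0, in both mice with antibiotics. Retsat differed by -2.39, -2.27 and -2.89 in untreated couples 1, 2 and 3 and by -0.03 in the antibiotic couple. Adipoq, the adipocyte hormone, had 3.58 in KO and 12.3 in WT with antibiotics, and 1.57, 2.45 and 14.9 in KO against 4.50, 10.8 and 3.27 in WT without. Stroma markers had medians of 0.16, -0.82 and -0.75 in untreated couples and -0.07 with antibiotics, and macrophage and dendritic cell markers 0.29, 0.07 and -0.18, and -0.13. The 6 markers of the distal small intestine had medians of -1.47, -0.74 and -0.64 in untreated couples and -0.97 with antibiotics. Their summed level, mostly Fabp6, was 837 in the KO and 5663 in the WT mouse with antibiotics. Without antibiotics it was 1109 to 2990 in KO and 5878 to 7843 in WT mice. In 3 of 3 untreated couples 4 of the 6 were lower in KO, while Slc10a2, the ileal bile acid importer, was higher, with differences of 1.25, 0.18 and 1.71. With antibiotics it had 7.53 in KO and 67.1 in WT. The 6 proximal markers, a list that holds Rbp2 itself, had medians between 0 and 0.12 in the 4 couples, with members on both sides. Lct, lactase, differed by -3.32, -2.74 and -3.64 in untreated couples and 0.02 with antibiotics. The part of these lists was not tested.

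**Figure D3:**
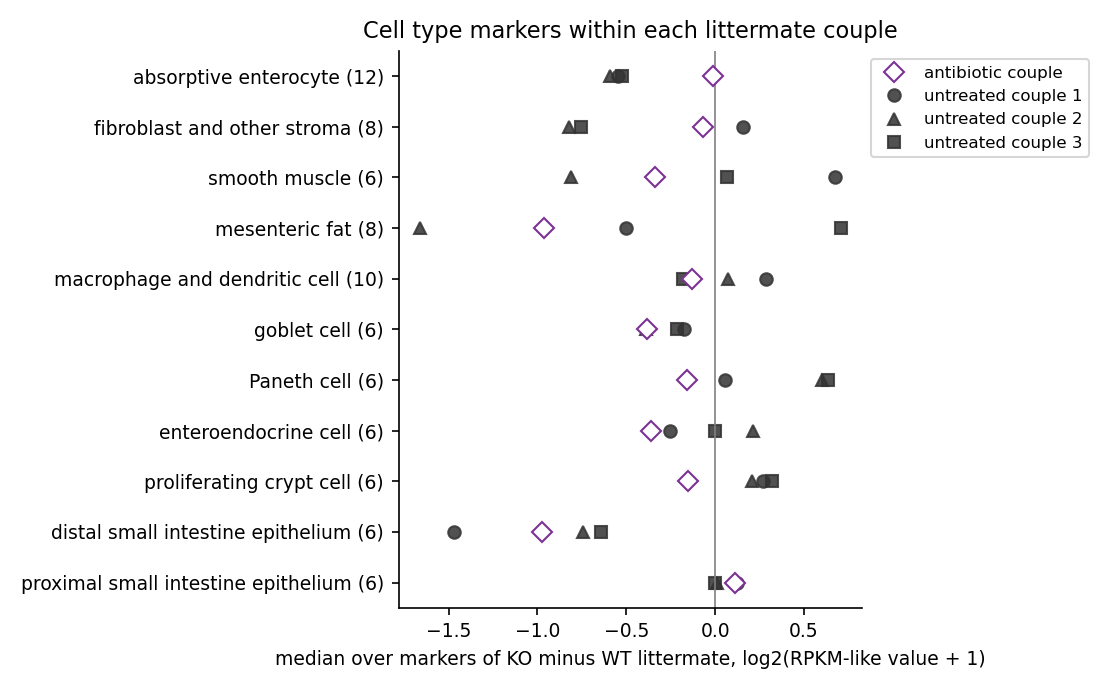
Median genotype difference of each cell type marker list within each littermate couple, as KO minus WT of log2(RPKM-like value + 1), with the number of markers in brackets. Filled symbols are untreated couples and open diamonds the antibiotic couple, where 3 Paneth cell and 5 smooth muscle markers had usable values; enterocyte markers lie at -0.59 to -0.52 in untreated couples and at -0.01 with antibiotics, and fat markers fall on both sides of 0.

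Around these 10 genes, 63 further rows of the retinoid pathway were examined, of which 38 were high enough to test. Without the block 1 was higher and 1 lower, and with it 2 were higher and 14 lower. The shares of all genes tested were 1.15% higher and 1.01% lower without the block and 8.40% and 9.91% with it. Of the 38, 29 had a fitted change below 0 and 9 above, with a median log2 change of -0.32 against -0.01 over all genes tested. None of these, and none of the 9 core genes tested, had passed the filter through 1 genotype only.

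Among the other retinol oxidising genes, 4 of 11 were testable and 3 fell with the block, as did 9.91% of all genes. Adh4, an alcohol dehydrogenase that can use retinol, had 4.20, 4.27 and 3.34 in untreated KO mice, against 15.9, 6.96 and 17.9 in WT littermates. Rdh9 had 0.480, 4.25 and 1.87 in KO, against 5.86, 11.2 and 7.85 in WT, and Rdh5 had 1.18, 2.49 and 1.72 in KO, against 2.38, 3.25 and 2.88 in WT. With the block their adjusted p-values were 0.0399, 0.0167 and 0.0471, and none passed without it (limma). None of the 3 overlapped between genotypes apart from Rdh5, whose KO 2 value lay above the WT 1 value.

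The retinaldehyde reductases were split. Akr1b8, an aldo-keto reductase, was higher in KO mice at 7.03, 5.70 and 5.38, against 2.64, 2.39 and 2.78 in WT littermates (log2 change 0.96, adjusted p = 0.0244, limma). Its adjusted p without any 1 library was 0.0677 to 0.108 (limma). Dhrs4, a peroxisomal reductase and one of the 3 most abundant tested genes of the wider list, had 21.3, 22.8 and 27.7 in KO, against 42.5, 40.6 and 54.0 in WT. It passed with the block (adjusted p = 0.00900, limma) and not without it (0.0634). Akr1b7 had 6.14, 6.75 and 17.7 in KO, against 23.4, 12.5 and 35.6 in WT, and passed with the block alone (0.0300, limma). The antibiotic couple had 62.3 Dhrs4 in KO and 74.6 in WT, 38.5 Akr1b7 in KO and 32.0 in WT, and 3.95 Akr1b8 in KO and 2.82 in WT.

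The paralogues of Aldh1a1 had the same direction at lower levels. Aldh1a7 had 2.85, 4.83 and 7.86 in untreated KO mice, against 13.8, 10.8 and 17.7 in WT littermates, and Aldh1a2 had 3.98, 3.14 and 2.40 in KO, against 6.70, 4.78 and 6.73 in WT. Both passed with the block alone (adjusted p = 0.0242 and 0.0399, limma). Aldh1a3 did not pass either test (0.223 without the block, limma). The Cyp26 enzymes, which break down retinoic acid, were too low to test.

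In ester handling, 6 of 7 genes were testable and 4 fell with the block, of which Ces1g also fell without it, against 9.91% and 1.01% of all genes. Ces1g, a carboxylesterase of lipid metabolism, had 1.45, 1.39 and 1.98 in untreated KO mice, against 4.25, 9.65 and 10.1 in WT littermates (log2 change -1.72, adjusted p = 0.0322, limma). The call held without the WT mouse of couple 1 (0.0111) and was lost without any other library, with adjusted p-values of 0.0824 to 0.126 (limma). With antibiotics Ces1g had 65.3 in KO and 51.9 in WT. Ces1d, which can hydrolyse retinyl esters, had 5.13, 2.61 and 6.94 in KO, against 13.3, 15.3 and 27.7 in WT. Dgat1, a triglyceride synthase that also esterifies retinol and was the most abundant of the wider list, had 114, 108 and 149 in KO, against 160.1, 147 and 206.5 in WT. Lipe, hormone-sensitive lipase, had 16.1, 28.1 and 26.2 in KO, against 22.4, 40.0 and 38.7 in WT. With the block the adjusted p was 0.0152 for Ces1d, 0.0256 for Dgat1 and 0.0210 for Lipe, and none passed without it (limma).

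Of 8 testable receptors and cofactors, 3 were lower with the block and none without it, against 9.91% and 1.01% of all genes. Rxra, the common partner of retinoid and fatty acid receptors, had 21.8, 28.9 and 25.8 in untreated KO mice, against 26.9, 42.7 and 42.8 in WT littermates. Nrip1, a corepressor induced by retinoic acid, had 7.30, 8.40 and 6.55 in KO, against 11.3, 12.5 and 10.1 in WT. Ncor1, another corepressor, had 14.6, 18.4 and 11.8 in KO, against 18.9, 29.6 and 20.5 in WT. The adjusted p with the block was 0.0383 for Rxra, 0.0184 for Nrip1 and 0.0305 for Ncor1 (limma). The value of Ncor1 in the WT antibiotic library was among the faulty ones and is not given.

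The 11 genes listed as responsive to retinoic acid were mostly too low to judge, with 3 testable. Dhrs3, Isx and Nrip1, described above as induced by retinoic acid, stand outside this list and were lower in KO with the block alone. Tgm2, tissue transglutaminase, had 34.5, 47.8 and 77.0 in untreated KO mice, against 22.1, 25.5 and 31.5 in WT littermates, without overlap. It was higher with the block (adjusted p = 0.0234, limma) and did not pass without it (0.185). With antibiotics it had 20.7 in KO and 13.8 in WT. Itga4 and Hic1 did not pass either test, and no binding protein or uptake gene of the wider list did.

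**Figure D4:**
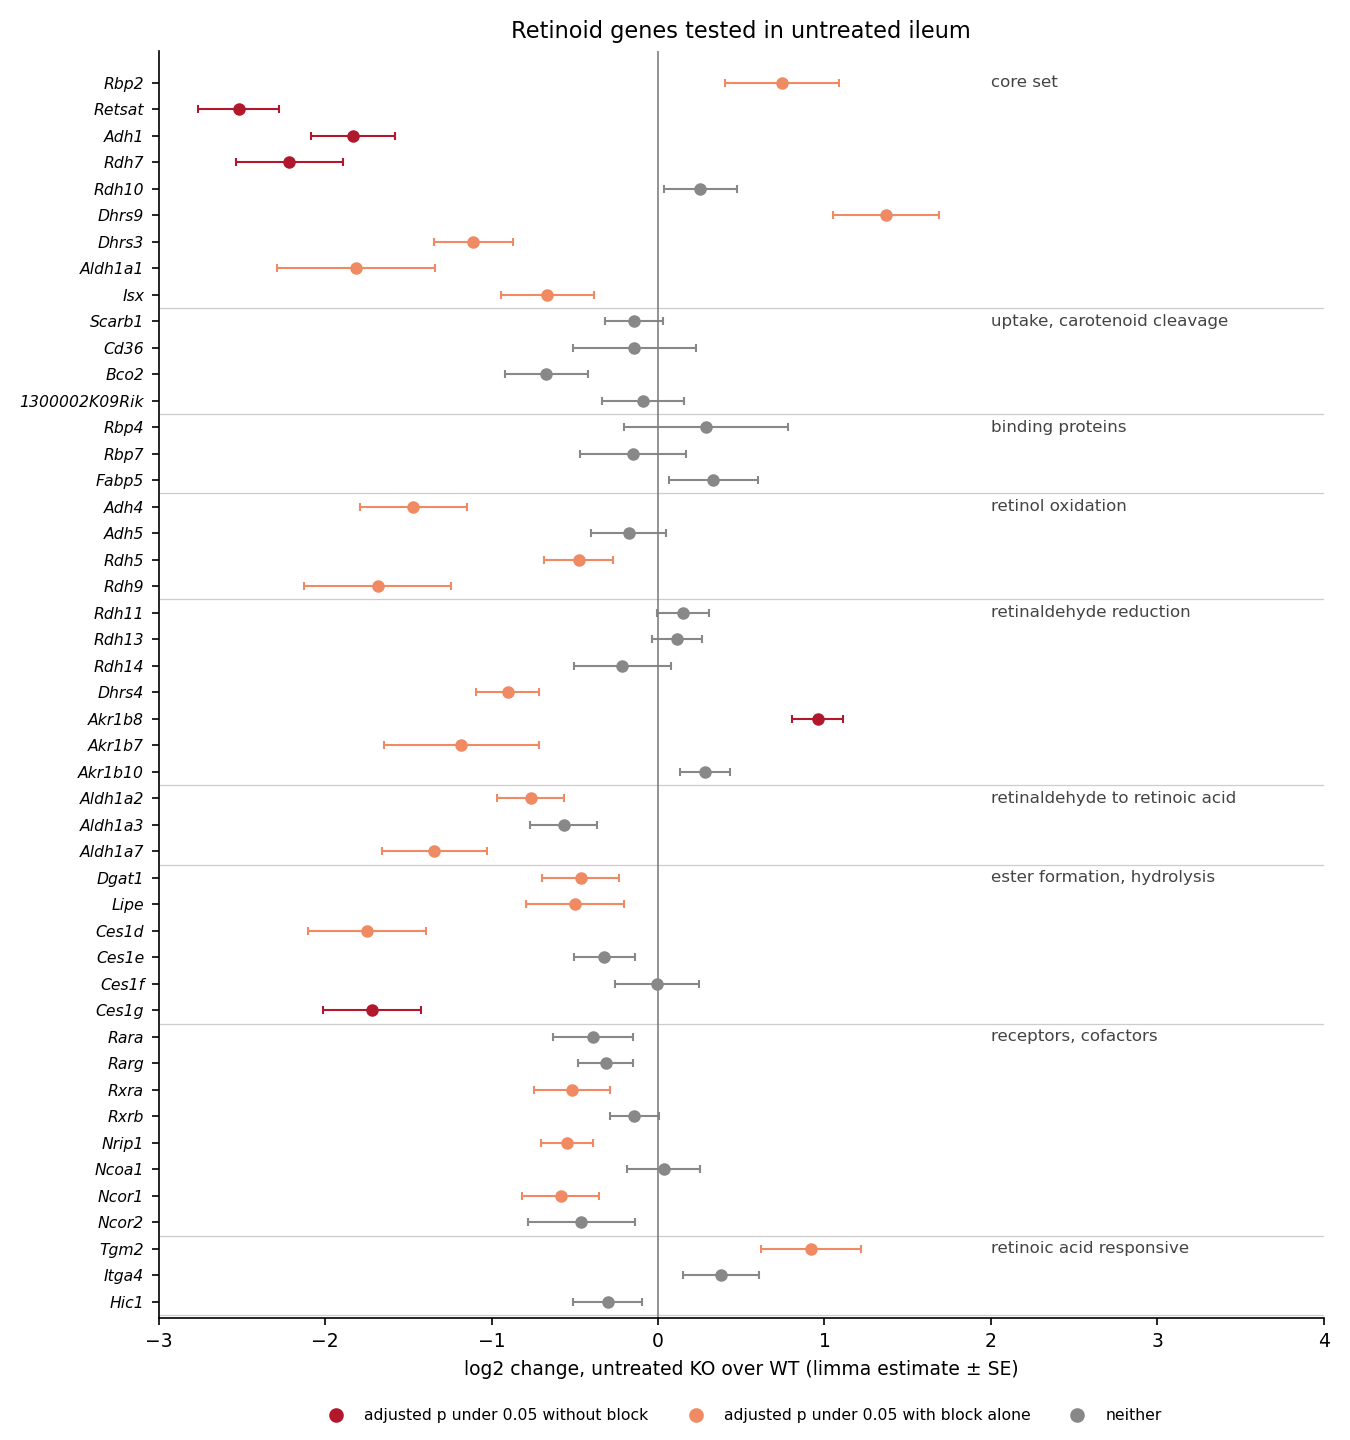
Log2 change in untreated KO over WT ileum, with its SE, from the limma fit without the block, for the 9 tested core genes and the 38 tested genes of the wider pathway, grouped by role. Red points passed without the block, orange points with it alone and grey points in neither fit; most points lie left of 0, with a wider-list median of -0.32, and Akr1b8, Tgm2, Dhrs9 and Rbp2 are the coloured points to the right.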

How the data were processed

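Polyadenylated RNA of 8 ileum sections was sequenced with Illumina HiSeq and Ion Proton instruments, and the authors mapped reads against GRCm38.76 with CLC Genomics Workbench 7.5, per the design text. The sources used here do not give each library's instrument, the counting rule, strand use or normalization. The authors' deposited values carry no unit and were taken as RPKM because they fall with gene length. Their sums ran from 346794 to 397082 and were the same, 351707, in each library of couples 1 and 2. Such sums cannot tell RPKM from another unit scaled by gene length. The sorted values of couples 1 and 2 are identical, as quantile normalization leaves them, and couple 3 and the antibiotic couple form 2 further sets. No p-value can cover differences between these sets.

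The 10 genes, the wider pathway list, the marker lists and the tests were chosen with earlier results of these data known. Named from the wider list were the genes called in untreated ileum in either fit, the 3 most abundant tested ones, Scarb1 and Bco1. Tgm2, Akr1b8 and the others are therefore named for their values. Cd36, Ttr, Rbp4, Itga4, Hic1, Aldh1a3 and the markers Adipoq, Lep, Slc10a2, Lct, Cubn and Fabp6 were added after their values were seen. Pathway roles come from general knowledge. Of the list's symbols, 3 matched no row.

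All fits used log2(value + 1), a scale that understates low genes' changes. Genes that reached 1 in 3 or more fitted libraries were tested with limma 3.58.1 in R 4.3.3 (trend, Benjamini-Hochberg over all genes tested, threshold 0.05), untreated KO against WT without a block. The labels put same-numbered mice in 1 litter, sampled within 20 min of each other, so fits with the couple as a block are given too. Littermates deviated together (correlations of 0.62, 0.64 and 0.51). Couples also differ in labelled sex and in apparent normalization set, so these correlations do not show an effect of litter alone. In the WT antibiotic library, 376 genes share values, 45 are at 0 with at least 1 in KO and 2 lie over 3 log2 units low. These 423 genes were left out wherever the antibiotic couple was used, by a rule made after the values were seen. The fits were checked for recovery of known log2 changes on simulated data with independent noise. That check does not measure false calls in these data. Alternatives were another pseudocount (0.1), no filter, other normalizations, no trend, all 8 libraries and leaving out each library. Positions come from GENCODE and promoters from RefSeq (GRCm38.p6), matched by symbol for 9 of 10 genes.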

Additional observations from a re-analysis of the deposited data

How the results depend on the processing

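No direction reversed under any alternative. The block, the filter, the trend and the fit of all 8 libraries leave an estimate unchanged by design. Only the pseudocount, the normalizations and the leave-outs could have reversed one. Of the core genes, 0 were called higher and 3 lower without the block. With the replicate block 2 were higher and 6 lower, also with a pseudocount of 0.1, quantile normalization or upper-quartile scaling (all 3 added after the data were seen). The deposited values of littermates already looked normalized together, so either scaling could change little within a couple. These runs could not test the normalization of the deposited values. Leaving out 1 library gave 0 higher and 1 to 4 lower, and leaving out 1 couple from the blocked fit 1 higher and 5 lower. Without a filter 0 were lower, where limma called 7 genes higher and 4 lower of 23285 (1936 at an unadjusted p under 0.05). The main fit called 135 higher and 118 lower of all genes, the blocked fit 984 and 1161; without 1 library 41 to 74 and 21 to 69 were called, and without 1 couple in the blocked fit 200 to 248 and 221 to 275. The cause of these differences was not tested.

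Of the wider list, 1 was higher and 1 lower. With the block 2 were higher and 14 lower (13 with a pseudocount of 0.1, 14 under both scalings); without a filter 0 and 0; with quantile normalization 2 were lower and with upper-quartile scaling 3. Leaving out 1 library gave 0 higher and 0 to 1 lower, and leaving out 1 couple with the block 0 to 1 higher and 4 to 7 lower. The list's median of -0.32 was -0.42 with a pseudocount of 0.1, with or without the block, and -0.048 with no filter, which adds genes near 0. Without 1 library it ran from -0.49 to -0.29, and without 1 couple in the blocked fit from -0.43 to -0.30. In the interaction, no gene was called in any run that left out the faulty genes. With all genes kept, 3 core genes and 1 gene of the wider list (Ncor1, with a faulty value) were called. The estimates of the 3 core genes were the same in both fits and their SE nearly so (Retsat 0.279 and 0.280). Their calls thus came with the adjustment over a gene set that held the faulty genes. Depth is unknown and low genes such as Lrat cannot be judged.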

Other observations

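Cd36, which takes up fatty acids and carotenoids, stood well above its untreated level in both mice of the antibiotic couple, and was chosen here after its values were seen. It had 215.5 in the KO and 74.3 in the WT mouse with antibiotics. Without antibiotics it had 11.0, 4.78 and 14.4 in KO mice, against 12.1, 7.38 and 12.1 in WT littermates, with a log2 change of -0.14 (adjusted p = 0.901, limma). Its genotype difference was 1.52 on the log2 scale with antibiotics, and the interaction did not pass (adjusted p = 0.162, limma).

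Ttr, the plasma carrier of thyroxine and of retinol-binding protein, varied from mouse to mouse. It had 4.37 in the KO and 5.81 in the WT mouse with antibiotics, and 11.5, 0.460 and 3.17 in untreated KO mice, against 0.537, 0.246 and 0.293 in WT littermates. Rbp4, its partner in plasma, had 5.88 in KO and 9.97 in WT with antibiotics, and 6.12, 1.00 and 4.64 in untreated KO mice, against 1.28, 2.98 and 3.85 in WT littermates. Ttr was too low to test without antibiotics, and Rbp4 did not pass (adjusted p = 0.834, limma).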
